A study of Mus musculus with 12 samples.

Results

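Kinesins are motor proteins that walk along microtubules or take them apart, and the gene rows whose symbol starts with Kif and goes on with a digit or with c were followed here through the purification of L1 ORF1p complexes from mouse testis. The rule found 42 genes of 20981 listed. They were sorted by their known work into 15 division kinesins, 17 transport kinesins, 6 kinesins of the cilium and of signalling, and 4 unclassed genes. The question was how the RNAs of the division kinesins compare with those of the transport kinesins in the TOTAL, INPUT, BO and IP samples.

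The samples were 12 RNA-seq libraries, 3 in each of 4 groups, from whole testes of C57BL/6 mice that were Mael-/- and 3 months old. MAEL is needed to make piRNAs, and without it spermatocytes overexpress the retrotransposon L1, whose ORF1p protein binds RNA. All 4 groups carry the mutation, so nothing here compares mutant with normal testis. TOTAL was the clarified testis extract with EDTA added to 10 mM, which takes ribosomes apart. INPUT was the pool of fractions 5 to 8 of a 10 to 50% sucrose gradient of that extract. IP was what an antibody to LINE-1 ORF1p on beads recovered from INPUT, and BO (beads only) was what beads without any antibody recovered, so BO carried no control immunoglobulin. The labels do not say whether the 3 libraries of a group came from different animals. Testis holds many cell types, and in such samples fewer cells of a type and less RNA per cell cannot be told apart.

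The gene values used here are group means, 1 for each group, and they come in 3 tables, each of which sets IP beside TOTAL, INPUT or BO. A mean is the authors' average of read counts after division by each library's size factor. The tables hold no value per library, and the authors' own errors and p-values in them were not used, so no SD, test or p-value is given for any gene. Whether a difference exceeds the spread between libraries was not assessed here. The reads behind a mean could still be bounded, because the smallest values of a column are steps worth 1 read. Gene reads summed over the 3 libraries of a group lay between 50240177 and 78365061 for TOTAL, 49448302 and 66674145 for INPUT, 29291266 and 61523915 for BO, and 54545412 and 72167776 for IP. The bounds cover which library a read came from and nothing else. The BO libraries were the least even in depth, with the widest step 2.10 times the narrowest.

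Differences are given as the log2 of the IP mean plus 1 over the other mean plus 1, always within 1 table. A gene was measured in a comparison when the larger of both means was at least 10, and it was counted as higher or lower when its log2 ratio passed 1 in either direction. The median of all measured genes lay at 0.82 for IP against BO, at 0.14 against INPUT and at -0.05 against TOTAL, so that a gene with a ratio of 0.82 against BO was only as high in IP as the middle gene. Of the 42 kinesin genes, 41 were measured. Kif12 was not, with a TOTAL mean of 0.325 and 0 in each other group.

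Kinesins share a motor domain that binds and splits ATP. Its P-loop, which holds the phosphates of ATP, reads glycine, any 4 residues, glycine, lysine and then serine or threonine. Mitotic and meiotic cells use one set of kinesins to build the spindle, to move chromosomes and to divide the cytoplasm, and all cells use another set to carry vesicles, organelles and RNA. In testis, kinesins also build the meiotic spindles of spermatocytes, the intercellular bridges and, later, the sperm head and tail. The P-loop code is given here for members on which the comparison turns, read from GENCODE M21 transcripts of the mm10 assembly, in lower case with the codons of the fixed residues in capitals.
Kif11: GGTcagactggcactGGAAAAACT
Kif4: GGGcagactggatctGGAAAAACG
Kif23: GGCgtgacgggaagtGGAAAAACC
Kif2a: GGGcagactggaagtGGGAAAACT
Kifc1: GGAcagacaggcagtGGCAAGACC
Kifc5b: GGAcagacaggcagtGGCAAGACC
Kif16b: GGGcaaactggatctGGAAAGTCC
Kif21a: GGAcaaaccggagctGGGAAAACC

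The first 6 of these belong to division kinesins and the last 2 to transport kinesins. The place of the P-loop in the protein differs between families. It starts at residue 104 of 1052 in Kif11 (exon 4, chr19:37384736-37384759, plus strand) and at residue 88 of 1231 in Kif4 (exon 3, chrX:100633865-100633888, plus strand). In Kif2a, a microtubule depolymerase whose motor lies in the middle of the protein, it starts 42.0% of the way along (exon 10, chr13:106979480-106979503, minus strand). In Kifc1 and Kifc5b, which walk to the minus end and carry the motor at their C terminus, it starts at 61.0% (exon 7, chr17:33883384-33883407, minus strand) and 60.9% (exon 7, chr17:26924480-26924503, plus strand). Kifc1 and Kifc5b have the same 24 bases there. They are close copies, and 25.4% of all 75-nt windows of Kifc1 transcripts also occur in Kifc5b, so reads from these windows could be split or lost between them and both values are uncertain. In Kif23 (exon 5, chr9:61937178-61937201, minus strand), Kif16b (exon 4, chr2:142857332-142857355, minus strand) and Kif21a (exons 2 and 3, chr15:90997708-90997838, minus strand) the site lies near the N terminus, and in Kif21a an intron interrupts it.

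The RNAs of all 15 division kinesins had a higher mean in IP than in TOTAL, INPUT or BO, with 1 exception under 1 other scaling (Kif2b against TOTAL, at -0.16 on summed gene means), and those of many transport kinesins did not. The median log2 ratio of IP to TOTAL was 2.01 over the 15 division kinesins and 0.27 over the 17 transport kinesins. Against INPUT the medians were 1.35 and -0.10, and against BO 1.74 and 0.09. The medians differed by 1.74, 1.45 and 1.66 in the same order, and a constant scaling of a comparison leaves these differences as they are. These 3 comparisons share the IP libraries and are not independent of each other.

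Counted past a log2 ratio of 1, 24 of the 41 kinesin genes were higher in IP than in TOTAL, where 20.5% of all measured genes were higher and 27.1% lower, and no kinesin gene was lower. Against INPUT, 18 kinesin genes were higher and none was lower, beside 20.7% and 15.3% of all genes, and on means scaled to their sum over genes 11 were higher and 5 lower, beside 9.4% and 28.9% of all genes on that scaling. Against BO, 21 kinesin genes were higher and 1 was lower, beside 44.3% and 11.4% of all genes, and the share of kinesin genes that were higher, 51.2%, was near that of all genes. The classes divided these counts unevenly. Of the 15 division kinesins, 14 were higher than TOTAL, 12 higher than INPUT and 14 higher than BO. On summed gene means these counts were 13, 7 and 11. Of the 17 transport kinesins, 5, 2 and 3 were higher (2, 1 and 0 on summed gene means). On summed gene means, 10% of all genes were higher than TOTAL, 9.4% higher than INPUT and 34.8% higher than BO. Of all genes measured in each comparison, 11.3% were higher in all 3, as were 10 of the 15 division kinesins, 1 of the 17 transport kinesins, 3 of the 6 cilium and signalling kinesins and the unclassed Kif4-ps. The counts in all 3 hold for the means as deposited and were not made under another scaling. From the median gene they could not exceed 6 division and 0 transport kinesins, the counts past 1 against BO.

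The count against BO also depends on the scaling. Counted from the median gene rather than from 0, 9 kinesin genes were more than 1 above it in IP against BO (18.4% of all genes), among them 6 division kinesins and no transport kinesin. On the other side, 7 were more than 1 below it (24.6% of all genes), the transport kinesins Kif21a, Kif5c, Kif13a, Kif3c and Kif5b and the unclassed Kif26a and Kif26b. Counted in the same way, 17 kinesin genes were past 1 against INPUT (16.9% of all genes) and 25 against TOTAL (21.6% of all genes). All 15 division kinesins lay above the median gene in each comparison, the nearest to it being Kif14 against BO at 0.05 above.

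**Figure D1:**
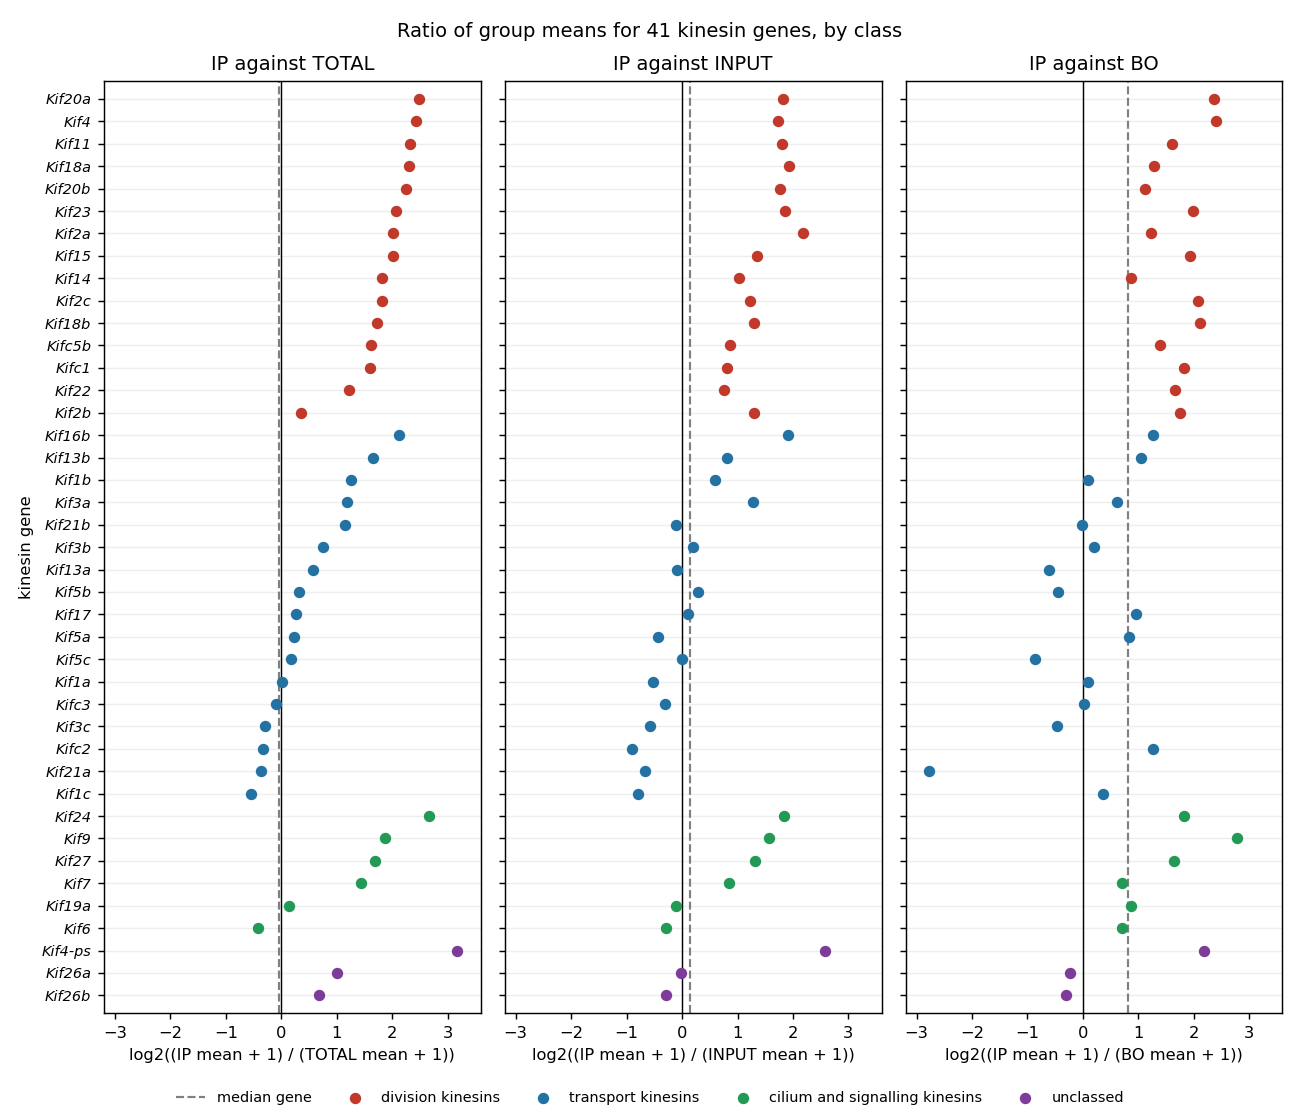
Log2 ratio of the IP mean to the TOTAL, INPUT or BO mean (horizontal axis) for each of the 41 measured kinesin genes (rows, ordered by class and by the TOTAL ratio), with 1 point per gene and a dashed line at the median of all genes. The division kinesins lie to the right of the dashed line in every panel, while transport kinesins spread to both sides of it, from Kif16b at 2.12 to Kif1c at -0.55 against TOTAL.

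Of the motors that keep the spindle bipolar, Kif11 had the second highest mean of all kinesins in IP, after Kif5b. In the sentences that follow, the means are in the order TOTAL, INPUT and IP, with the IP mean of the TOTAL table, and BO is given with the IP mean of its own table. TOTAL and INPUT stand in different tables, whose IP means nearly coincide (9912 and 9956 for Kif11). Kif11, the kinesin-5 that slides antiparallel microtubules to part the spindle poles, had means of 1988, 2864 and 9912, and 2481 in BO beside 7595 in IP. IP was thus 4.98-fold TOTAL, 3.48-fold INPUT and 3.06-fold BO. The log2 ratio of Kif11 to BO was 0.79 from the median gene, 0.80 on the upper quartile and 1.33 on summed gene means. Kif15, a kinesin-12 that helps keep the spindle bipolar, had 1167, 1843 and 4702, and 940 in BO beside 3596 in IP. For both genes the IP mean was the highest of each pair and TOTAL lay below INPUT.

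The motors that ride on or position chromosomes had the same order. Kif4, a chromokinesin of chromosome arms and the central spindle, had 1023, 1683 and 5532, and 805 in BO beside 4237 in IP, with log2 ratios of 2.43, 1.72 and 2.39 against TOTAL, INPUT and BO. Kif22, the other chromokinesin, had 323, 453 and 757, and 183 in BO beside 581 in IP, and its ratio to INPUT, 0.75, was the lowest of the division kinesins. Kif18a, a kinesin-8 that limits chromosome movements at the metaphase plate, had 871, 1136 and 4301, and 1359 in BO beside 3300 in IP. Its BO mean was above its INPUT mean on the scale set across tables by the shared IP libraries (log2 0.65). Of the division kinesins, 5 had this order, the others being Kif2a (0.95), Kif20b (0.64), Kif11 (0.18) and Kif14 (0.15). Kif18b, its relative of astral microtubules, had 225, 306 and 750, and 132 in BO beside 574 in IP, and was 4.31-fold higher in IP than in BO.

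The motors of cytokinesis had log2 ratios to TOTAL from 1.82 in Kif14 to 2.49 in Kif20a. Kif20a, which brings the chromosomal passenger complex to the midzone, had 1486, 2368 and 8367, and 1247 in BO beside 6408 in IP. Its ratio to TOTAL was the highest of the division kinesins. Kif23, which with Racgap1 forms centralspindlin and is part of the stable bridges between germ cells, had 1439, 1679 and 6061, and 1178 in BO beside 4644 in IP. Kif20b, a midbody motor, had 1712, 2382 and 8108, and 2838 in BO beside 6209 in IP. Kif14, which works with citron kinase at the midbody, had 364, 637 and 1291, and 538 in BO beside 988 in IP. As deposited, Kif14 was the only division kinesin below a log2 ratio of 1 against BO (0.87), and against INPUT it passed narrowly (1.02). On summed gene means, Kif20b (0.84), Kif2a (0.95) and Kif18a (0.99) also lay below 1 against BO. From the median gene, 6 of the 15 division kinesins passed 1 against BO.

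The microtubule depolymerases of the kinesin-13 family were less alike. Kif2a had 1454, 1308 and 5920, and 1924 in BO beside 4534 in IP, and its ratio to INPUT, 2.18, was the highest of the division kinesins. Kif2c, which acts at centromeres, had 580, 872 and 2045, and 372 in BO beside 1565 in IP. Kif2b was low, with 54.4, 27.9 and 69.8, and 15.2 in BO beside 53.4 in IP, and its BO mean stood for 30 to 64 reads in all. Kif2b was the division kinesin with the lowest log2 ratio to TOTAL, 0.35, which became -0.16 when the means were scaled to their sum over genes. It was also the member with the lowest INPUT against TOTAL (-0.94).

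The minus-end motors of the class were of low level. Kifc1, which focuses spindle poles and also works in spermatid heads, had 117, 202 and 357, and 76.7 in BO beside 273 in IP. Kifc5b had 75.7, 129 and 235, and 68.2 in BO beside 179 in IP. Both were past 1 against TOTAL (1.60 and 1.62) and BO (1.82 and 1.38) and not against INPUT (0.82 and 0.86), and with their shared sequence they are not 2 independent observations. From the median gene their ratios to BO were 0.99 and 0.56.

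**Figure D2:**
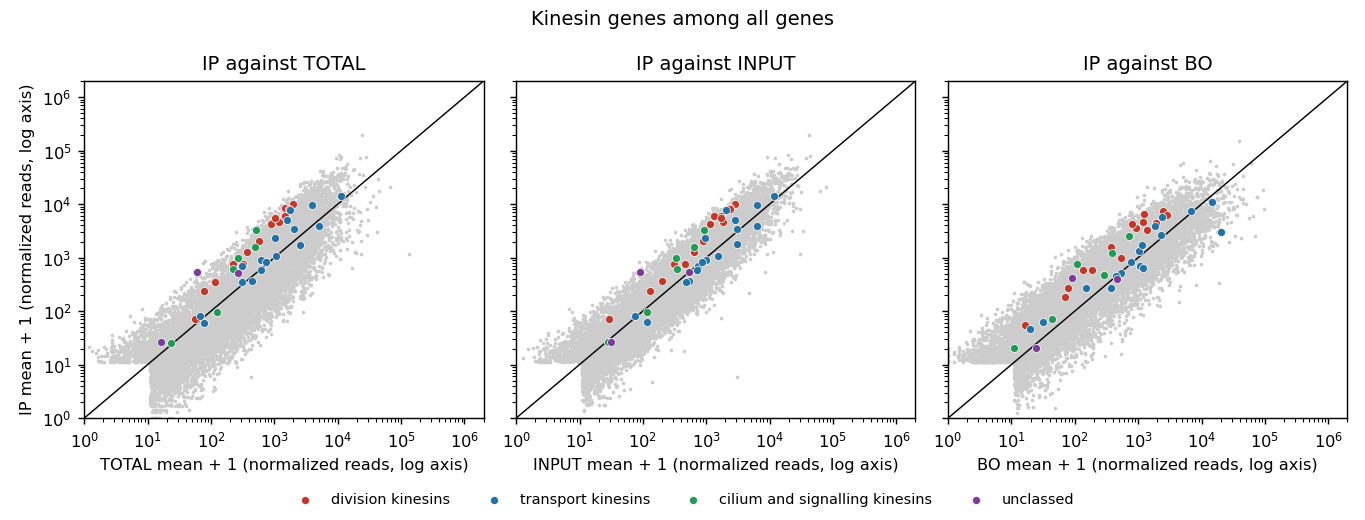
Mean plus 1 in IP (vertical log axis) against mean plus 1 in TOTAL, INPUT or BO (horizontal log axis), in normalized reads, for all measured genes in grey and kinesin genes in colour by class, with the line of equal means in black. Division kinesins lie above the line at low and at high means, and Kif21a stands out to the right in the BO panel, with a BO mean of 20353.

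Conventional kinesin, the main carrier of vesicles and organelles, had IP means near those of TOTAL and INPUT and less near those of BO. Kif5b, its ubiquitous heavy chain, had the highest mean of any kinesin in TOTAL, with 11331, 11595 and 14143, and 14726 in BO beside 10827 in IP. Its log2 ratios were 0.32 against TOTAL, 0.29 against INPUT and -0.44 against BO, and the first 2 became -0.20 and -0.24 on summed gene means. Kif5c had 746, 842 and 839, and 1177 in BO beside 643 in IP. Kif5a, best known from neurons, had 302, 477 and 353, and 152 in BO beside 270 in IP. No Kif5 gene passed a ratio of 1 in any comparison as deposited, but counted from the median gene Kif5b lay at -1.27 and Kif5c at -1.69 against BO. Kif5a was close to the median gene against BO (0.83), and its BO mean was below its INPUT mean on the scale set across tables (log2 -1.26).

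The kinesin-2 motors, which drive intraflagellar and other transport, differed among themselves. Kif3a had 1008, 944 and 2291, and 1147 in BO beside 1755 in IP, and passed 1 against TOTAL (1.18) and INPUT (1.28) but not against BO (0.61). Its ratio to INPUT fell to 0.97 on the upper quartile and 0.75 on summed means, and its ratio to TOTAL to 0.67 on summed means. Its partner Kif3b had 2074, 3040 and 3474, and 2314 in BO beside 2658 in IP, and passed in no comparison. Kif3c had 435, 535 and 357, and 378 in BO beside 273 in IP, and was the lower in IP in each pair. Kif17, a motor of cilia and of spermatids, had 66.9, 74.6 and 80.6, and 31.1 in BO beside 61.6 in IP.

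The kinesin-3 motors of endosomes and vesicles differed widely among themselves. Kif16b, which carries early endosomes, had 1750, 2040 and 7636, and 2417 in BO beside 5845 in IP. Its log2 ratios of 2.12, 1.91 and 1.27 against TOTAL, INPUT and BO made it the only transport kinesin past 1 in all 3 comparisons, and the only one above the division median against TOTAL or INPUT. Its ratio to BO did not pass 1 under the other scalings (0.45 from the median gene, 0.46 on the upper quartile and 0.99 on summed means). Kif13b had 1601, 2884 and 5039, and 1866 in BO beside 3855 in IP, past 1 against TOTAL (1.65) and BO (1.05) and below it against INPUT (0.81). Its ratio to BO fell to 0.22 from the median gene, 0.23 on the upper quartile and 0.76 on summed means. Kif13a had 613, 975 and 909, and 1058 in BO beside 696 in IP, and was lower in IP than in BO (-0.60).

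Of the other kinesin-3 genes, only Kif1b passed 1, and only against TOTAL. Kif1b, a carrier of mitochondria and synaptic vesicle precursors, had 3985, 6311 and 9547, and 6885 in BO beside 7306 in IP, so that its ratio was 1.26 against TOTAL and 0.09 against BO. On summed means the first was 0.74. Kif1a had 1074, 1559 and 1085, and 781 in BO beside 829 in IP. Kif1c had 2567, 3069 and 1756, and 1041 in BO beside 1345 in IP. Kif1c had the lowest log2 ratio to TOTAL of all measured kinesins, -0.55.

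Kif21a stood apart from every other member in BO. This kinesin-4 relative, which restrains microtubule growth in axons, had 5008, 6209 and 3901, and 20353 in BO beside 2981 in IP, a log2 ratio of -2.77 that was lower still under each other scaling. It was the only kinesin gene counted as lower in IP than in BO as deposited, against 7 from the median gene, and 1.11% of measured genes had a ratio to BO as low or lower. On the scale set across tables, BO exceeded INPUT by a log2 of 2.10, and the BO mean stood for 40543 to 85158 reads. Its relative Kif21b had 309, 740 and 684, and 532 in BO beside 524 in IP. It passed 1 against TOTAL (1.15, or 0.63 on summed means), with the highest INPUT against TOTAL of all members (1.25), and lay at -0.02 against BO.

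The minus-end transport motors had no ratio above 1 against TOTAL or INPUT. Kifc3, a motor of cell junctions and the Golgi, had 624, 724 and 585, and 444 in BO beside 448 in IP. Kifc2 had 76.2, 114 and 60.1, and 18.6 in BO beside 46.0 in IP. Its ratio of 1.26 against BO rests on a BO mean of 37 to 78 reads and went with the lowest ratio to INPUT of the class, -0.91, which passed -1 under each other scaling (-1.05 from the median gene, -1.22 on the upper quartile and -1.44 on summed means).

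The cilium and signalling kinesins were split. Kif24, a motor of the mother centriole that holds back cilium growth, had 521, 930 and 3309, and 714 in BO beside 2532 in IP, and its log2 ratio to TOTAL, 2.66, was above that of every division kinesin. Kif9, a motor of motile cilia and the sperm tail, had 267, 329 and 978, and 108 in BO beside 749 in IP, the highest ratio to BO of all kinesins (2.79). Kif27, a relative of the Hedgehog pathway motor Kif7, had 490, 634 and 1581, and 386 in BO beside 1211 in IP. These 3 genes passed 1 in each comparison. Under other scalings Kif27 fell short, at 0.83 from the median gene and 0.84 on the upper quartile against BO, and 0.79 on summed means against INPUT. Kif7 had 225, 343 and 613, and 289 in BO beside 469 in IP, and passed against TOTAL only (1.44, or 0.92 on summed means). Kif6 and Kif19a, both of motile cilia, were low and passed in none. Kif6 had 126, 115 and 93.7, and 43.3 in BO beside 71.7 in IP, and Kif19a had 22.5, 27.1 and 24.8, and 9.97 in BO beside 19.0 in IP.

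Among the unclassed genes, the annotated pseudogene Kif4-ps (chr12:101145614-101149758) had the highest ratio to TOTAL of all kinesin rows. It had 59.1, 89.6 and 539, and 89.6 in BO beside 413 in IP, with log2 ratios of 3.17, 2.58 and 2.19 against TOTAL, INPUT and BO. It is a processed copy of Kif4, and no 75-nt window of its annotated transcript was identical to a Kif4 transcript. Windows that differ by a few bases were not looked for, so whether Kif4 reads were counted on it was not assessed. Kif26a had 262, 536 and 524, and 470 in BO beside 401 in IP, just short of a ratio of 1 against TOTAL. Kif26b had 15.2, 30.8 and 25.1, and 23.7 in BO beside 19.1 in IP.

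The make-up of the kinesin RNA followed the classes. The 42 genes took 0.296% of the summed gene means in TOTAL, 0.388% in INPUT, 0.487% in BO and 0.507% in IP. Division kinesins made up 26.6% of that kinesin sum in TOTAL, 28.4% in INPUT, 19.8% in BO and 49.2% in IP. Transport kinesins made up 69.3%, 66.8%, 77.3% and 44.4%. Kif21a alone held 28.4% of the kinesin sum in BO and between 3.28% and 10.3% elsewhere. Without Kif21a, a calculation chosen after its BO mean was seen, division kinesins made up 29.7% in TOTAL, 31.5% in INPUT, 27.6% in BO and 50.8% in IP, so that TOTAL, INPUT and BO came close to each other.

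**Figure D3:**
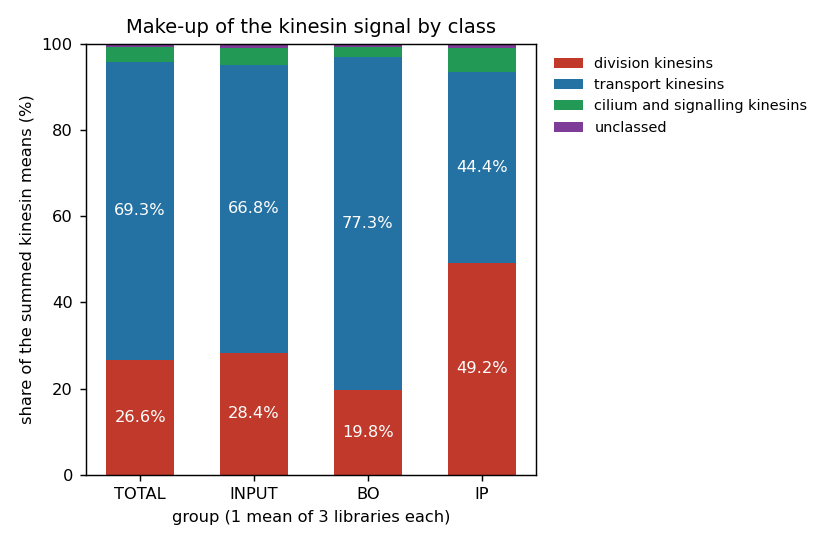
Share of the summed kinesin means, in percent, held by each class (stacked bars from 0 to 100%) in TOTAL, INPUT, BO and IP, each from 1 mean of 3 libraries and with IP from the table shared with TOTAL. The division share is 26.6% in TOTAL, 28.4% in INPUT and 19.8% in BO, and 49.2% in IP.

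The 2 comparisons without IP parted the classes less. INPUT against TOTAL, set across tables as a ratio of ratios, had a median log2 of 0.52 over division kinesins and 0.31 over transport kinesins, beside -0.17 over all genes. BO against INPUT, set in the same way, had medians of -0.52 and -0.08, beside -0.59 over all genes. The ranges of the classes overlapped in these 2 comparisons and in each comparison with IP. In the 2 without IP, no division kinesin lay above all transport kinesins, and 0 and 3 transport kinesins lay below every division kinesin. In IP against BO, 12 of the 15 division kinesins lay above every transport kinesin, against TOTAL 5 did and against INPUT 2 did. In the same order, 13, 10 and 14 of the 17 transport kinesins lay below every division kinesin.

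Per kilobase of the longest transcript, the scale on which genes can be compared, Kif5b led in TOTAL with 1878, before Kif21a with 778, and the division kinesins Kif23, Kif11 and Kif20a followed Kif21a with 423, 412 and 404. In IP, Kif5b had 2345 per kilobase, Kif20a 2277, Kif11 2057 and Kif23 1784, while Kif21a had 606. Of these, Kif20a, Kif11 and Kif23 neared Kif5b in IP and not in TOTAL.

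Transcript length and base composition differed between the classes, and their relation to the ratios varied by comparison and by class. The longest transcripts had a median of 3674 nt for division kinesins and 6439 nt for transport kinesins. Across the 41 kinesin genes, Spearman's rho of the IP to BO ratio with length was -0.61, and across 14046 genes it was -0.36. For IP against TOTAL the values were -0.12 and 0.42. With GC content, rho of the IP to INPUT ratio was -0.63 across the kinesin genes and -0.26 across 14707 genes, and within the division kinesins it was -0.77 and within the transport kinesins -0.46. Within the classes other relations turned. Among division kinesins, rho with length was -0.45 against BO, 0.50 against INPUT and 0.63 against TOTAL. With GC content, rho of the IP to BO ratio was 0.43 among division and 0.29 among transport kinesins. With the mean of the other group, rho among division kinesins was 0.84 against TOTAL, 0.65 against INPUT and -0.26 against BO. Across all genes it was 0.12, 0.12 and -0.27. These values describe genes of the same libraries, which are no independent replicates. The part of length, GC content or level in the difference between the classes was not tested.

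**Figure D4:**
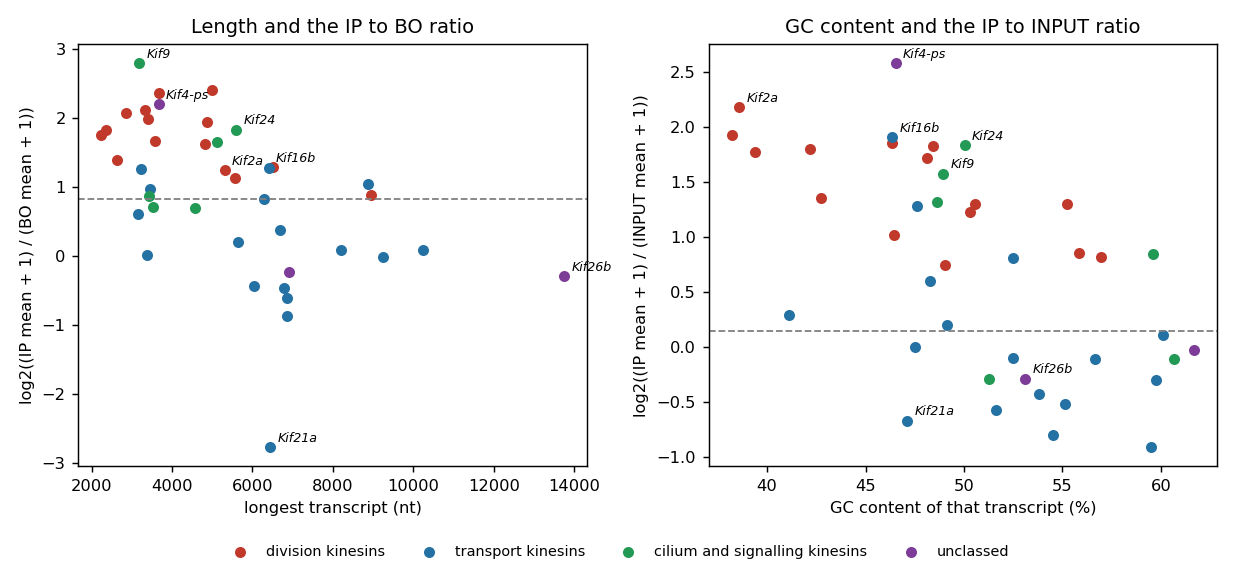
Log2 ratio of IP to BO against the length of the longest transcript in nt (left), and of IP to INPUT against its GC content in percent (right), with 1 point per kinesin gene, colours for the classes and a dashed line at the median of all genes. Ratios are lower at greater length on the left (rho -0.61) and at higher GC content on the right (rho -0.63), and Kif21a lies far below genes of its length.

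Proteins that work beside the motors were counted in the same way. Of 28 spindle and cytokinesis partners, such as Aurora kinases, checkpoint proteins and centralspindlin, the count of genes higher in IP was 22 against TOTAL, 22 against INPUT and 27 against BO, and 1 gene was lower, against TOTAL. These are 78.6%, 78.6% and 96.4% of the list, beside 20.5%, 20.7% and 44.3% of all genes. Counted from the median gene against BO, 18 of the 28 were past 1 above it, beside 18.4% of all genes. Ect2, the RhoA activator that binds centralspindlin, was highest, with 1511 in TOTAL and 11011 in IP (log2 2.86). Spc24, of the Ndc80 kinetochore complex, was lowest, with 209 and 90.0 (-1.21). Of 15 kinesin light chains and cargo adaptors, 3, 2 and 7 were higher and 1 was lower in each comparison. The higher shares, 20.0%, 13.3% and 46.7%, were near or below those of all genes. Counted from the median gene against BO, 2 of the 15 were past 1 above it and 3 below, beside 18.4% and 24.6% of all genes. Mapk8ip3, a scaffold of conventional kinesin, was highest, with 884 in TOTAL and 4614 in IP (2.38), and Fez1 lowest, with 136 and 18.4 (-2.83).

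Markers of the testis cell types moved with the groups too, and their counts stand beside 20.5%, 20.7% and 44.3% of all genes higher and 27.1%, 15.3% and 11.4% lower against TOTAL, INPUT and BO. Of 8 spermatocyte genes, 7 were higher in IP than in each other group, beside 11.3% of all genes, and their summed mean was 27488 in TOTAL, 31837 in INPUT and 163092 in IP, and 14320 in BO beside 125101 in IP. Sycp1, of the synaptonemal complex, had 9433 in TOTAL and 71553 in IP (2.92), while Ccna1 had 13.2 and 5.51. Most somatic markers lay lower in IP than in TOTAL, with Myh11 (2645 and 3069) and Pecam1 (57.7 and 77.0) the other way, and many were not lower than in BO. Of 6 Sertoli cell genes, the count lower in IP was 4 against TOTAL, 3 against INPUT and 3 against BO, and none was higher. Their summed mean was 34167 in TOTAL beside 9526 in IP, and 10811 in BO beside 7282 in IP. Of 5 Leydig cell genes, 5 were lower than in TOTAL and 4 lower than in INPUT, while against BO 2 were higher, a share of 40.0% near that of all genes, and none was lower. Against BO, 18.4% of all genes were more than 1 above the median gene, and 0 of the Leydig cell genes were. Their sums were 77573 in TOTAL beside 15226 in IP, and 5666 in BO beside 11645 in IP. Of the 7 genes of peritubular, vessel and immune cells, 4 were lower than in TOTAL and 4 lower than in INPUT, but 5 were higher than in BO and none lower. Counted from the median gene, where 18.4% of all genes were past 1 against BO, 0 of these 7 genes were. Their sums were 9561 in TOTAL beside 4985 in IP, and 1938 in BO beside 3816 in IP. Of 6 spermatogonial genes, 1 was lower than in TOTAL and 1 lower than in INPUT, and against BO 2 were higher and 2 lower, with sums of 5587 in TOTAL and 3382 in IP. Counted from the median gene against BO, 1 was past 1 above it and 3 below, beside 18.4% and 24.6% of all genes. The 6 spermatid genes were at most at 39.3 in TOTAL (Tnp2), and 5 of them were lower in IP, where Prm2 was at 0. Tssk6 was higher, with 5.09 in TOTAL and 12.8 in IP, and it made up most of the list's IP sum of 15.8, beside 121 in TOTAL. The targeted gene Mael had means of 0.65 in TOTAL, 0.50 in BO and 0 in INPUT and in IP. The part of the cell of origin in the difference between division and transport kinesins was not tested.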

How the data were processed

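Gene tables deposited for 4 groups of 3 RNA-seq libraries (TOTAL, INPUT, BO, IP) were analysed, with groups taken from the sample labels. According to the study's methods and the submitters' processing notes, reads were mapped to mm10 with STAR 2.6.0c and counts normalized with DESeq2 1.24.0. The annotation used for counting is not given in the sources used here. Row names of the kind STAR writes hold reads without a gene, and these 4 rows were left out. They took 22.1% of all signal in BO and 10.5% in IP for reads outside genes, and 18.2% in TOTAL and 5.30% in IP for reads with several positions, which are counted on no gene.

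The deposited signal is the mean of normalized counts over a group, rounded by the authors to 3 decimals, and each table was normalized on its own. The tables also hold the authors' fold changes with their errors, test statistics and p-values, which were not used. A table of repeat subfamilies was not used here, since it lists no gene. Depth per library is unknown for genes. Reads behind a mean were bounded from the steps worth 1 read.

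Ratios used a pseudocount of 1 and a larger mean of at least 10, in Python 3.11.15 with pandas 2.3.3 and scipy 1.17.1. No test was run, since the values used are 1 mean per group and the authors' statistics were set aside. Ratios of INPUT to TOTAL and of BO to INPUT are differences of log2 ratios from different tables. Alternatives were pseudocounts of 0.1 and 10, no filter or a mean of at least 100, centring on the median gene, scaling to the upper quartile or the sum of gene means, a log2 ratio of 1.5, and narrower classes. The steps were tested on simulated counts. Symbols of 20706 of 20981 genes were matched to GENCODE M21, which gave positions, lengths and P-loop codes.

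The members, classes and lists (spindle and cytokinesis partners, kinesin light chains and cargo adaptors, cytoplasmic dynein and dynactin, and markers of 6 cell types) were chosen with earlier results of these data known. Every classed kinesin with a mean of at least 10 was named, and of each partner list the genes with the highest and the lowest ratio of IP to TOTAL.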

Additional observations from a re-analysis of the deposited data

How the results depend on the processing

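No paired analysis was possible because the gene tables hold 1 mean per group, and for the same reason no replicate could be omitted in turn. The spread among libraries was not assessed, since the authors' errors and p-values were not used. The classes kept their order under each alternative that was run: the difference of their medians had the same sign in all 30 cases. Of 102 counts under an alternative, 78 were within 1.5 times the count reported. Taking the filter off could change neither the differences nor the class counts, since every division and transport kinesin already passed it. Depth limits the low members Kif2b, Kifc2, Kif19a and Kif26b. The cause of the shifts between scalings was not tested.

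Against BO, kinesin genes counted as higher numbered 9 from the median gene and 10 on the upper quartile, and those lower 7, 7 and, on summed means, 2. Of all genes, 18.4%, 19.3% and 34.8% were higher from the median gene, on the upper quartile and on summed means. In the same order, 24.6%, 24.2% and 15.3% were lower. Division kinesins higher than BO numbered 6 from the median gene and 7 on the upper quartile. Transport kinesins higher than BO numbered 0 from the median gene, 0 on the upper quartile, 0 on summed means and 0 at a log2 ratio of 1.5. From the median gene, 8 kinesin genes turned sign against BO, none of them past 1 before. Against INPUT, kinesin genes higher numbered 11 on summed means and 11 at 1.5, and those lower 1 from the median gene, 2 on the upper quartile and 5 on summed means. Division kinesins higher than INPUT numbered 7 on summed means and 7 at 1.5, and transport kinesins 1 on the upper quartile, 1 on summed means and 1 at 1.5. Against TOTAL on summed means, 1 kinesin gene was lower, and transport kinesins higher numbered 2 there and 2 at 1.5. Of all genes, 10% were higher and 38.8% lower than TOTAL on summed means. Shares of all genes at 1.5 were not counted.

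The division minus transport difference for IP to BO was 1.72 with a pseudocount of 0.1, 1.53 with 10, 1.65 with means of at least 100, 1.70 without Kif2a and 1.55 without the Kif21 and Kifc genes among transport kinesins. In the same order, without the first, it was 1.44, 1.64, 1.42 and 1.24 for IP to INPUT and 1.76, 1.70, 1.65 and 1.69 for IP to TOTAL. For INPUT to TOTAL it was 0.13 with means of at least 100, 0.24 without Kif2a and 0.23 with the narrower transport class, and for BO to INPUT it was -0.45, -0.38, -0.49, -0.45 and -0.52 over the 5 alternatives.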

Other observations

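Cytoplasmic dynein is the motor that walks to the minus end, against the direction of most kinesins, and dynactin is its cofactor. Of 26 dynein and dynactin genes, 2 were higher in IP than in TOTAL and 4 were lower, with a median log2 ratio of 0.05, beside 20.5% higher, 27.1% lower and a median of -0.05 over all genes. Against BO, 17 of the 24 measured were higher and 1 was lower, with a median of 1.48, beside 44.3% higher, 11.4% lower and a median of 0.82 over all genes. Counted from the median gene against BO, 10 were past 1 above it and 3 below, beside 18.4% and 24.6% of all genes. Against INPUT, 7 of 25 were higher, with a median of 0.58, beside 20.7% higher and a median of 0.14 over all genes. Dync1h1, the motor subunit, had the highest ratio to TOTAL, with means of 12999 in TOTAL and 49410 in IP (1.93). Dynlt1b, a light chain, had the lowest, with 26.8 and 6.71 (-1.85). The list's longest transcripts had a median of 2660 nt and ran from 527 to 14342 nt.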
